A study of Mus musculus with 96 samples.

Results

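SOX17 binding was compared between 8 h and 24 h (day 1) of GATA6 induction at all 42403 GATA6 binding regions of the mouse genome (mm10), the complete set in the deposited table, so that no region was selected on its SOX17 signal. The gain was then related to the GATA6 signal already present at 8 h, to chromatin accessibility before induction, and to the best SOX17 motif of each region. Of the 96 samples of the series, 4 were SOX17 chromatin immunoprecipitation (ChIP-seq) libraries from these times, labelled as 2 at 8 h and 2 at day 1. All 4 came from KH2 mouse embryonic stem (ES) cells (strain C57BL/6 x 129/Sv) carrying a doxycycline (Dox)-inducible cassette that encodes GATA6 with an HA tag. The line was derived from antibiotic-resistant clones, and the cells were kept on feeders with serum and LIF and given 1 µg/mL Dox, so the groups shared the genotype, the medium and the agent and differed only in the hours of exposure. The feeders were removed by adsorption before fixation. The study's methods give 2 independent chromatin preparations for most conditions, with no exception for SOX17 at these times, and do not say whether the preparations came from separate cultures. The p-values below rest on the spread between these preparations as pooled over regions of like signal, not on that of each region alone.

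GATA6 is a zinc-finger factor that can bind its motif in closed chromatin and that drives the primitive endoderm (PrE), the extra-embryonic lineage that later forms the yolk sac endoderm. SOX17 is an HMG-box factor of the same lineage. It binds the minor groove at an ATTGT-like core, bends the DNA, and is encoded by a gene that PrE cells switch on downstream of GATA6. SOX2, its relative in ES cells, pairs with the POU factor OCT4 on a composite site in which 1 base lies between the SOX and POU parts, whereas SOX17 is known to pair with OCT4 on a compressed site that lacks this base. XEN cells are a stem cell line that resembles the PrE.

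The SOX17 signal of a region is given as RPM, the reads of the region scaled to the size of the library, which the authors deposited as 1 value per time. Each value was the mean of both libraries. As 1 read is worth a different RPM in each library, the 2 read numbers behind a value were solved uniquely for every region at 8 h and for all but 5 regions at day 1. The recovered depths were 13376284 and 8399664 reads at 8 h, and 15255742 and 14136808 reads at day 1. A region held a median of 7 and 5 reads in the 8 h libraries and of 14 and 12 reads in the day 1 libraries, so single regions were thinly covered at 8 h. The recovered libraries could not be matched to the replicate numbers of the labels, and they are called library 1 and 2 by depth. Log2 read numbers correlated between the libraries of a time with r = 0.752 at 8 h and 0.855 at day 1, across regions, which are not independent replicates.

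The motifs at the regions with the largest gains, and at regions without a gain, show the letters that the comparison concerns. In the lines below, the best SOX17 motif of a region stands in capitals with 10 flanking bases on each side, on the strand of the match (RefSeq sequence of GRCm38). Dmc1, Gpr135 and Sox7 carry the same 9 bases and were chosen to be read side by side. Tfec and Odc1 are from the largest gains, Cubn and Sox17 are PrE genes, and the Nodal region is one that did not pass the test.
Dmc1: aagatactacCCCATTGTCatctagttta
Gpr135: tcctctaactCCCATTGTCcttccgttac
Sox7: aaatccctccCCCATTGTCcccacacctt
Tfec: gacaatccccACCATTGTCtgctaatcct
Odc1: aataaggaagGGCATTGTCtgtagatcac
Cubn: ccaaatagttTCCATTGTCaaacttccct
Sox17: ctggctctctGACATTGTCtccaaaacat
Nodal: ctagcaagctGTCATTGTCtgagttgtac
The printed bases lie at chr15:79569228-79569256 (+) for Dmc1, chr12:72029431-72029459 (+) for Gpr135, chr14:63941295-63941323 (-) for Sox7, chr6:16870146-16870174 (-) for Tfec, chr12:17535497-17535525 (+) for Odc1, chr2:13496272-13496300 (-) for Cubn, chr1:4537011-4537039 (-) for Sox17 and chr10:61415797-61415825 (+) for Nodal. The identical motif of Dmc1, Gpr135 and Sox7 stood in regions whose SOX17 signal changed by 4.34, 4.10 and 0.33 on the log2 scale.

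A second set of letters separates the composite sites. The compressed site TTGTATGC (joined) and the site with 1 base between the SOX and POU parts, TTGTNATGC (spaced), were searched on both strands in every region. The joined site alone was found in 770 regions, the spaced site alone in 1198 and both in 28, so that 1.88% of all regions held a joined and 2.89% a spaced site. Each of the following regions was among those with the highest day 1 signal for its kind of site, which stands in capitals, the first pair being joined and the second pair spaced.
Cd247: tgtggttacaTTGTATGCatataggtgc
Efna4: gataggatctTTGTATGCttcatcacac
Gm6993: actgatagaaTTGTAATGCagaaaccttg
Mreg: tattgtgtaaTTGTTATGCaaaaatgttg
The capitals lie at chr1:165854660-165854667 (+), chr3:89336738-89336745 (+), chr12:31229640-31229648 (+) and chr1:72229172-72229180 (-). Gm6993 is the name the annotation gives to the nearest gene start, and the region lies 35.6 kb upstream of Lamb1, a laminin chain gene.

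SOX17 binding appeared between 8 h and day 1. The median region held 0.523 and 0.595 RPM in the 8 h libraries and 0.918 and 0.849 RPM in the day 1 libraries, so both day 1 medians were above both 8 h medians. On the log2(RPM + 0.182) scale, on which all log2 changes below are given and which understates changes at low values, the median change was 0.51, with quartiles of 0.04 and 1.10. The 4 pairings of an 8 h with a day 1 library gave medians between 0.41 and 0.66, compared with 0.23 from one 8 h library to the other and -0.06 between the day 1 libraries. The upper end of the distribution moved most: the 99th percentile was 3.51 and 4.88 RPM at 8 h and 12.06 and 12.03 RPM at day 1. As the libraries are of bulk cells, binding in fewer cells and weaker binding per cell cannot be told apart. Reads falling in the regions made up 3.03% and 3.84% of the 8 h libraries and 7.20% and 6.90% of the day 1 libraries.

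In a limma fit over the 42398 regions with unique library values (2 libraries against 2, Benjamini-Hochberg adjusted p below 0.05), 11120 regions were higher at day 1, or 26.2% of those tested, and 225 were lower, or 0.531%. Past a 2-fold change of the pooled values were 12142 regions upward (28.6%) and 365 downward (0.861%). The fit drew the spread of each region wholly from the trend over regions of like signal, so the standard errors below do not reflect the spread between a region's own libraries. Both day 1 libraries lay above both 8 h libraries in 22094 regions (52.1%) and below them in 3329 (7.85%). The number of higher regions was lower without 1 library at a time: 7870 and 10140 without the first and second 8 h library, 6978 and 6541 without the first and second day 1 library.

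The course at the other times, whose values did not enter the calls, put most of the gain after 16 h. Among the 11120 higher regions the median signal was 0.641 RPM at 8 h and had moved little by 16 h, to 0.850 RPM. It then reached 2.53 RPM by day 1, 3.08 RPM by day 2 and 3.35 RPM by day 4, while XEN cells had 1.70 RPM. At 16 h 6.23% of them were past 2-fold over their 8 h value (1.94% of all regions). This share was 91.5% on day 2 (34.6% of all) and 74.5% on day 4 (44.8% of all), and XEN cells had 53.0% (37.6% of all). As the 8 h values also chose the regions, these shares are a description. Over all regions the median change was -0.04 from 8 h to 16 h, 0.61 from 16 h to day 1 and 0.13 from day 1 to day 2. The 16 h values moved in steps of a single library, although 2 samples carry that label, so the 16 h values have no replicate. The median of the 225 lower regions went from 1.31 RPM at 8 h to 0.700 RPM 8 h later, and then to 0.436 RPM by day 1 and 0.341 RPM by day 4.

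**Figure D1:**
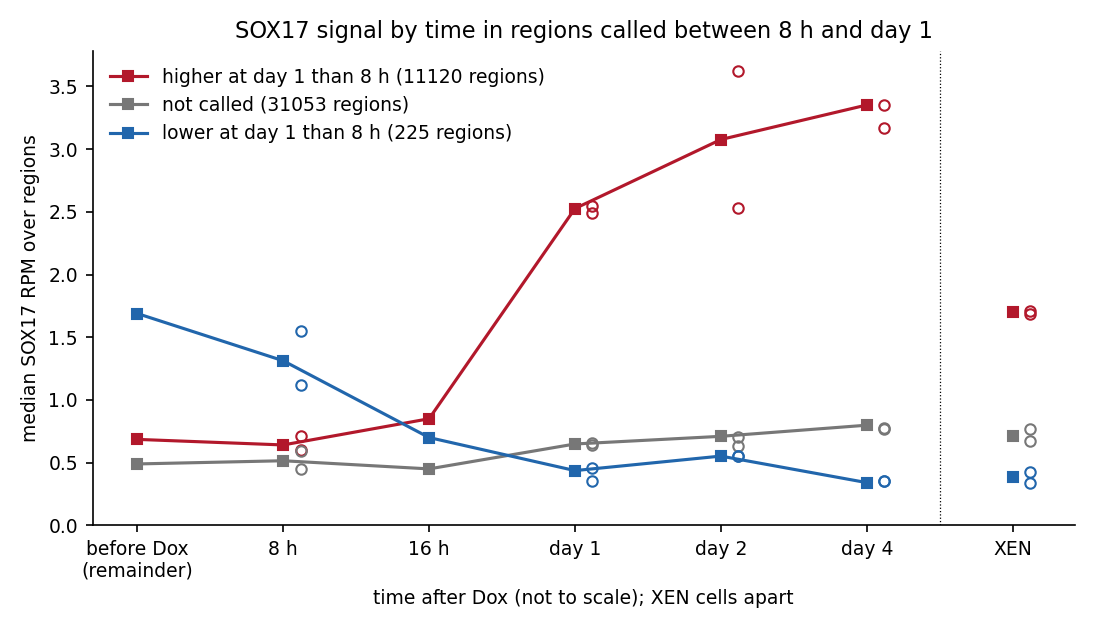
Median SOX17 RPM (y axis) over the regions called higher, lower or neither between 8 h and day 1, by time of Dox (x axis, not to scale) with XEN cells apart. Squares are the deposited pooled values, open circles the recovered libraries, and the first point is the part of the deposited column before induction that no other time contributed to. The higher regions stay at 0.641 and 0.850 RPM at 8 h and 16 h and reach 2.53 RPM at day 1. The 8 h and day 1 points were used to choose the regions.

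The signal before the onset was not flat across regions. At 8 h the SOX17 level correlated across the 42403 regions with the GATA6 level (Spearman 0.786) and the SOX2 level (Spearman 0.817) of the same time, and with region width (Spearman 0.739), all of which share depth and width. The deposited column for cells before induction proved to be a mixture in which the 8 h libraries carry a weight of 40% and the 16 h library 20%, so it is no independent start. The remaining part, a whole multiple of 1 step in 100% of regions, had a median of 0.538 RPM and was above the 8 h values by a median log2 of 0.02. Whether the signal at 8 h was SOX17 or came with accessible chromatin was not tested.

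GATA6 at 8 h ordered the SOX17 gain poorly. When the regions were divided into 5 equal groups by GATA6 RPM at 8 h, from lowest to highest, the median log2 change was 0.36, 0.66, 0.48, 0.44 and 0.68. The shares called higher by limma were 14.9%, 28.4%, 24.95%, 25.4% and 37.5%, against the 26.2% of all regions. Thus the lowest group gained least, and the highest had the largest share called. The median of the highest group, 0.68, was close to the 0.66 of the second group, and the medians fell from the second group to the fourth. In the lowest group the medians were 0.224 and 0.238 RPM at 8 h and 0.328 and 0.424 at day 1. In the highest they were 1.35 and 1.79 RPM at 8 h and 3.02 and 2.33 at day 1. Because the highest group started from more, its gain in RPM was the larger by far, with a median of 1.01 RPM against 0.122 to 0.325 in the other groups. Per region, the Spearman correlation of GATA6 at 8 h with the gain was 0.07 on the log2 scale and 0.24 in RPM (n = 42403 regions, which share libraries, depth and width).

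This weak relation also changed sign with the library and with width. The distance between the highest and lowest group, as the difference of their median log2 SOX17, was 1.91 and 2.23 in the 8 h libraries and 2.65 and 2.05 in the day 1 libraries, so the times overlapped. Spearman correlations ran from -0.08 to 0.23 over the 4 library pairings. Regions with more GATA6 were wider, with a median width of 983 bases in the highest group and 348 in the lowest. Within 5 groups of equal width, the highest GATA6 group gained less than the lowest in each, by a median of -0.26.

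The dynamics of GATA6 told the regions apart where its level at 8 h did not. The authors' 3 GATA6 classes, built from GATA6 at all times without SOX17, are early (bound from the start and kept), late and transient (bound and then lost). The median change was 1.15 in the 11875 early regions, 0.44 in the 14243 late and 0.20 in the 16285 transient regions, of which 56.1%, 17.4% and 12.1% were called higher. Early regions went from 0.748 and 0.833 RPM to 2.23 and 2.12 RPM, and transient regions from 0.598 and 0.714 RPM to 0.852 and 0.707 RPM. The 2 classes started close to each other and separated, as the early minus transient difference was 0.25 and 0.18 in the 8 h libraries and 1.22 and 1.37 in the day 1 libraries, with no overlap. An exact permutation of 2 against 2 libraries cannot give a two-sided p below 0.333, so this and the class differences below carry no test.

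Within the early class the GATA6 level at 8 h did not order the gain upward, the medians of the 5 groups being 1.35, 1.17, 1.14, 1.13 and 1.14. Within the transient class they fell from 0.90 in the lowest group (298 regions) to 0.14 in the highest. The GATA6 class took up 22.6% of the variance of the log2 change across regions and the grouping by GATA6 at 8 h 1.72%. For the difference in RPM these shares were 20.2% and 10.6%. GATA6 at day 1 correlated with the gain with a Spearman coefficient of 0.514 and at 16 h of 0.292.

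Accessibility before induction was related to the starting level more than to the gain. In the authors' classes from ATAC-seq of undifferentiated ES cells, 3152 regions were accessible, 13248 moderate and 26003 closed. The accessible regions held 1.12 and 1.43 RPM at 8 h and 1.70 and 1.56 RPM at day 1, and closed regions 0.374 and 0.476 RPM at 8 h and 0.655 and 0.707 RPM at day 1. The median log2 change was 0.36 in accessible, 0.40 in moderate and 0.60 in closed regions, and 17.99%, 23.1% and 28.8% were called higher. Closed regions thus had the larger relative gain and yet stayed below accessible ones in each library. The closed minus accessible difference was -1.23 and -1.29 at 8 h and -1.17 and -0.97 at day 1.

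On the RPM scale the order of the classes was the opposite, with median gains of 0.366 RPM in accessible, 0.296 in moderate and 0.280 in closed regions. The input, sequenced without antibody, differed from 8 h to day 1 by a median log2 of 0.42 at accessible regions and of -0.02 at closed ones, and its part in the SOX17 values was not tested. Taken as a ratio to input, the closed minus accessible difference in the gain was 0.74 instead of 0.23. In the highest GATA6 group closed regions stood out on both scales: 49.2% of 3033 were called higher, with a median change of 0.99 and 1.26 RPM, against 25.6% of 1068 accessible regions, with 0.40 and 0.736 RPM. In the lowest group the order was turned, at 0.35 for closed and 0.49 for 88 accessible regions.

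**Figure D2:**
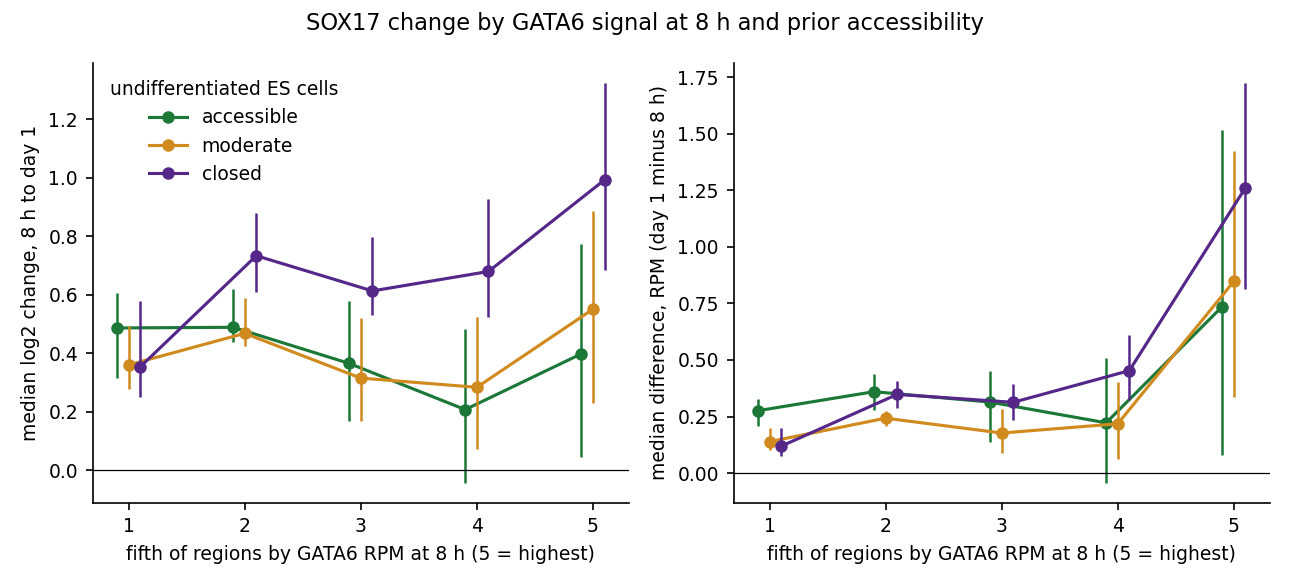
Median SOX17 change from 8 h to day 1 on the log2 scale (left) and in RPM (right) by quintile of GATA6 RPM at 8 h (x axis), for regions accessible, moderate or closed before induction. Vertical lines span the medians of the 4 pairings of an 8 h with a day 1 library. Closed regions are highest in quintiles 2 to 5 on the left, reaching 0.99, and they reach 1.26 RPM in quintile 5 on the right.

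The SOX17 motif ordered the gain in steps. The authors' classes by the FIMO score of the best match held 8324 regions with a high, 9733 with a mid and 11276 with a low score, and 13070 regions without a match. The median change was 0.79, 0.68, 0.51 and 0.31 in this order, and 39.4%, 33.8%, 24.5% and 13.8% were called higher. Regions of the high class went from 0.598 and 0.714 RPM to 1.31 and 1.27 RPM, those without a motif from 0.449 and 0.476 RPM to 0.655 and 0.566 RPM. The high minus none difference was 0.31 and 0.45 in the 8 h libraries and 0.83 and 0.96 in the day 1 libraries. It was therefore present at 8 h and larger at day 1, without overlap.

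The high class exceeded the class without a motif in each of 14 combinations of accessibility class and GATA6 quintile that held at least 20 regions of both, by 0.04 to 0.73. It did so in all 5 groups of equal width, by 0.22 to 0.54, which matters because wider regions hold more motifs and their median width was 640 bases in the high class and 421 without a motif. The number of matches went the same way, with medians of 0.31 for 0 matches, 0.48 for 1, 0.65 for 2 and 0.96 for 3 or more. Score and gain were nevertheless loosely tied for a given region (Spearman 0.152, n = 29333 regions with a motif).

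Motif and GATA6 class were then read together. Early regions with a high-scoring motif had a median change of 1.45 and 70.7% of 2920 were called higher, whereas early regions without a motif had 0.81 and 36.9% of 2609. Transient regions with a high-scoring motif had 0.29 and 18.1% of 2500. A high-scoring motif in a transient region thus came with a smaller median gain than no motif in an early one. The 3 measures of the comparison were crossed into 60 groups of GATA6 quintile, accessibility and motif class. These groups took up 11.4% of the variance of the log2 change across regions. By itself the motif class reached 5.58%, accessibility 2.54% and GATA6 1.72%. In RPM the order was another one. The 60 groups took up 16.8% of the variance of the difference in RPM, GATA6 by itself 10.6%, the motif class 5.37% and accessibility 0.103%.

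**Figure D3:**
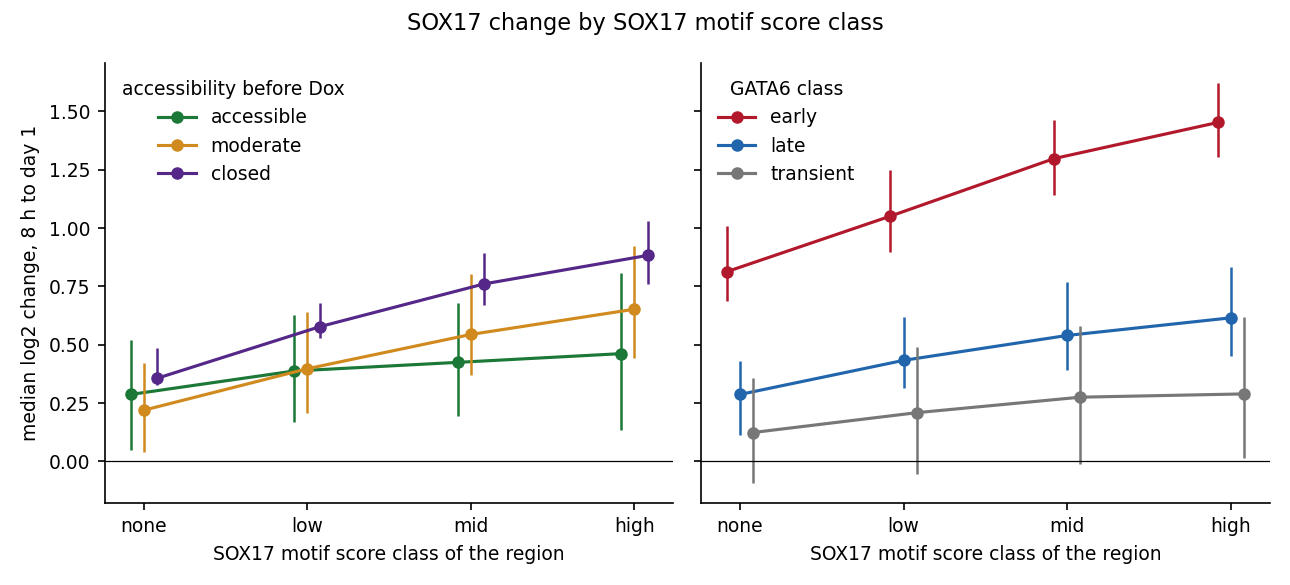
Median log2 change of SOX17 from 8 h to day 1 by SOX17 motif score class (x axis), split by accessibility before induction (left) and by GATA6 class (right). Vertical lines span the 4 pairings of libraries. The medians climb from no motif to high score in each of the 6 lines, from 0.81 to 1.45 in the early class and from 0.12 to 0.29 in the transient class.

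The gain also differed between the letters behind the score. Of 210 distinct 9-base best matches, 100 occurred in at least 100 regions, and their median changes ran from 0.24 for GTCACTGTC (118 regions) to 1.08 for CCCATTGTC (482 regions, 50.4% called higher). The 80 sequences with the core ATTGT had medians between 0.41 and 1.08, and the 20 with another core reached at most 0.58. Over all best matches the median change was 0.69 in 23953 regions with ATTGT, 0.44 with ACTGT, 0.43 with ATTGG and 0.42 with TTTGT. Score and median change of the 100 sequences had a Spearman correlation of 0.586, as a description over sequences that share regions' libraries.

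Regions with pluripotency factor binding gained during induction had the largest median change of the authors' binding classes. These classes sort regions by peak calls of OCT4, SOX2 and ESRRB, a nuclear receptor of ES cells, into 8841 bound before induction, 7038 bound only after it (ectopic) and 26524 never bound. The median change was 0.50, 1.43 and 0.36, and 32.1%, 67.5% and 13.3% were called higher. Ectopic regions started at 0.598 and 0.714 RPM, below the 1.12 and 1.55 RPM of regions bound before induction, and reached 2.16 and 2.26 RPM against 2.23 and 1.77 RPM. The ectopic minus unbound difference was 0.49 and 0.45 in the 8 h libraries and 1.60 and 1.71 in the day 1 libraries. Across all regions the change in OCT4 from 8 h to day 1 correlated with that in SOX17 more than the change in GATA6 or SOX2 did (Spearman 0.595, 0.487 and 0.444, n = 42403 regions with shared depth and width).

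Joined and spaced composite sites differed in their SOX17 gain. Regions with only the joined site had a median change of 1.16, and 54.0% of 770 were called higher, while regions with only the spaced site had 0.39 and 25.5% of 1198. Regions with neither had 0.51 and 25.7%. The joined regions went from 0.635 and 0.833 RPM to 1.999 and 1.91 RPM, and the spaced ones from 0.748 and 1.07 RPM to 1.31 and 1.13 RPM. At 8 h the spaced regions were the higher ones and at day 1 the joined regions were: the joined minus spaced difference was -0.19 and -0.30 in the 8 h libraries and 0.55 and 0.67 in the day 1 libraries.

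This order held in each class examined. Among ectopic regions the joined median was 1.90 and the spaced one 1.42, among regions bound before induction 1.16 and 0.31, and among unbound regions 0.55 and 0.24. In the transient GATA6 class, where few regions gained SOX17, 34.2% of 234 joined regions were called higher against 7.90% of 696 spaced ones. Joined regions without any FIMO match to the SOX17 matrix still had a median change of 0.86 (178 regions), above the 0.79 of the high-scoring motif class as a whole. Among the 11120 higher regions 3.83% held a joined site, against 1.88% of all regions, and 2.84% a spaced site, against 2.89%.

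**Figure D4:**
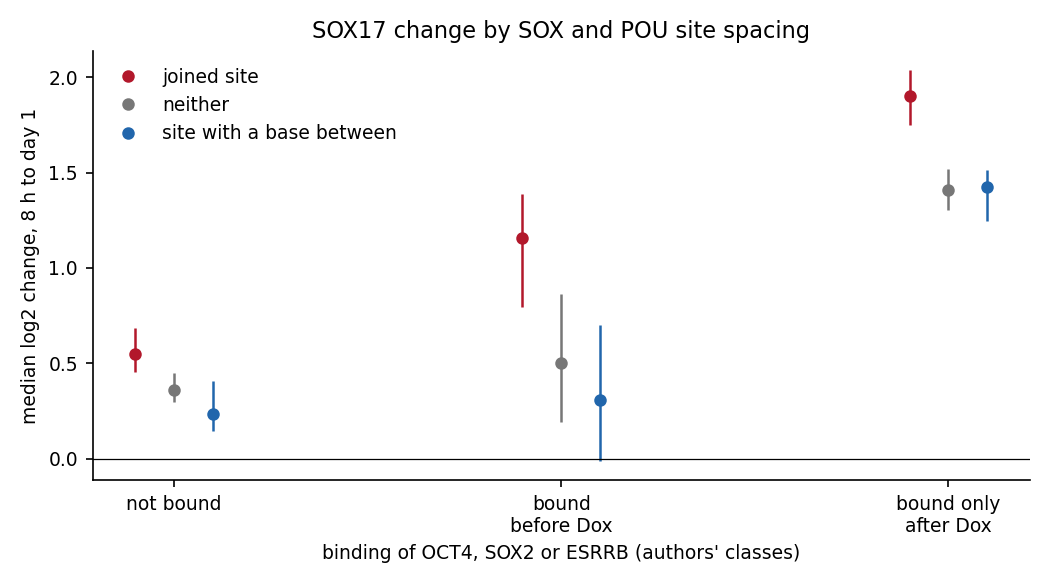
Median log2 change of SOX17 from 8 h to day 1 (y axis) for regions with only the joined site, only the site with a base between its parts, or neither, in each class of binding by OCT4, SOX2 or ESRRB (x axis). Vertical lines span the 4 pairings of libraries. The joined regions are highest in each class, at 0.55, 1.16 and 1.90.

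The 12 regions with the largest log2 gains were closed before induction and ectopic for pluripotency factors without exception, 7 being early and 5 late. Among all regions 61.3% were closed, 16.6% ectopic, 28.0% early and 33.6% late. Of the 12, 4 held a joined site, which 1.88% of all regions hold. They had 0.0748 to 0.972 RPM in the 8 h libraries and 3.34 to 26.7 RPM in the day 1 libraries. The GATA6 signal at 8 h placed 8 of them in the lowest 2 of the 5 groups, which are of equal size. GATA6 was higher at day 1 than at 8 h in all 12. Its median went from 1.89 to 2.92 RPM over the 11120 higher regions and from 1.49 to 1.29 RPM over all regions.

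The largest was an intronic region of Tfec (chr6:16869473-16870840), a MiT-family transcription factor gene, 28.3 kb into the gene. Its SOX17 signal was 0.449 and 0.833 RPM at 8 h and 17.9 and 18.5 RPM at day 1. The limma log2 change was 4.52 ± 0.37 (SE, n = 2 against 2; adjusted p = 1.73e-29). The Cd247 intron (chr1:165854041-165855116), which carries the joined site printed above, went from 0.972 and 0.952 RPM to 23.2 and 26.7 RPM (limma log2 change 4.46 ± 0.36, adjusted p = 4.18e-30). Cd247 encodes a chain of the T cell receptor complex. GATA6 in this region was 0.701 RPM at 8 h and 4.38 RPM at day 1, while OCT4 went from 0.773 to 15.1 RPM. Its SOX17 signal was 41.0 RPM at day 2 and only 2.95 RPM at day 4, whereas that of Tfec was 26.4 and 19.5 RPM.

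An intron of Dmc1, a meiotic recombinase gene (chr15:79568482-79569691), followed with 0.523 and 0.952 RPM at 8 h and 17.1 and 19.7 RPM at day 1. A region 9.21 kb upstream of Odc1, the gene of the first enzyme of polyamine synthesis (chr12:17535383-17535981), had 0.374 and 0.595 RPM and then 11.7 and 13.4 RPM. The libraries of the 2 times lay far apart in each of these, and the adjusted p of the 12 in limma was at most 1.01e-17. As the same libraries chose the 12 regions, both statements are descriptions. The other 8 were named by AC132253.5, Atg14, Gnai3, Ibtk, Gpr135, Clint1, Socs1 and Cdh26, and Gnai3 and Socs1 had no SOX17 motif match.

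The 12 largest gains in RPM were largely other regions. Ranking by RPM favours regions of high signal, and ranking by log2 those of low signal at 8 h. The contrast thus follows in part from the rankings. Of the 12, 11 were early regions bound by pluripotency factors before induction and in the highest GATA6 group at 8 h, and the remaining one was the Cd247 region. Among all regions 28.0% were early, 20.8% bound before induction and 20.0% in that group. The 12 regions gained 22.6 to 33.7 RPM. The gain was largest in an intron of Macrod2 (chr2:140747726-140749927), from 2.11 to 35.9 RPM in the pooled values. This region and that of Pla2g10 had no unique library values and did not enter the fit.

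An intron of Col4a1 (chr8:11308478-11310403), 3.92 kb inside the gene and 3.902 kb from the start of Col4a2, gained next most. Both genes encode the collagen IV chains of the basement membrane that PrE cells lay down. Its signal was 3.96 and 4.29 RPM at 8 h and 26.4 and 40.1 RPM at day 1 (limma log2 change 2.93 ± 0.34, adjusted p = 5.71e-15). The region 35.6 kb upstream of Lamb1 went from 5.08 and 7.14 RPM to 33.2 and 32.9 RPM (limma log2 change 2.42 ± 0.34, adjusted p = 9.61e-11), and its GATA6 was already 62.2 RPM at 8 h and 35.2 RPM at day 1. The other regions were named by Thumpd3, Gna12, Sall4, Apopt1, Gm30624, P4ha1 and Usp48. P4ha1, which encodes a collagen prolyl hydroxylase subunit, had its region at the edge of the gene (2.47 and 2.98 RPM, then 22.6 and 31.1 RPM).

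The 6 largest falls were transient GATA6 regions throughout, and GATA6 and OCT4 were lower at day 1 than at 8 h in each. These traits were those of the 225 lower regions, of which 91.1% were transient, beside 38.4% of all regions. OCT4 was higher at day 1 than at 8 h in 6.67% of the lower and 63.0% of all regions. The 2 largest falls overlapped coding exons of Nr0b1, which encodes the nuclear receptor DAX1 of ES cells. The first (chrX:86191555-86193083) had 9.20 and 24.6 RPM at 8 h and 1.51 and 1.06 RPM at day 1 (limma log2 change -3.40 ± 0.37, adjusted p = 1.32e-17). Its pooled value was 2.28 RPM in the remainder of the column before induction and 7.60 RPM at 16 h. OCT4 in this region was 5.29 RPM at 8 h, 35.0 RPM at 16 h and 1.72 RPM at day 1. In the second Nr0b1 region OCT4 was 1.31, 7.03 and 0.369 RPM at these times. The source of these values was not tested. In the other falls OCT4 was lower at 16 h than at 8 h. The others were named by 0610009E02Rik, Bcl2, Fam189a1 and Vwc2. None of the 6 had a high-scoring motif, which is too few regions to set against the 14.7% of the lower and 19.6% of all regions with one.

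**Figure D5:**
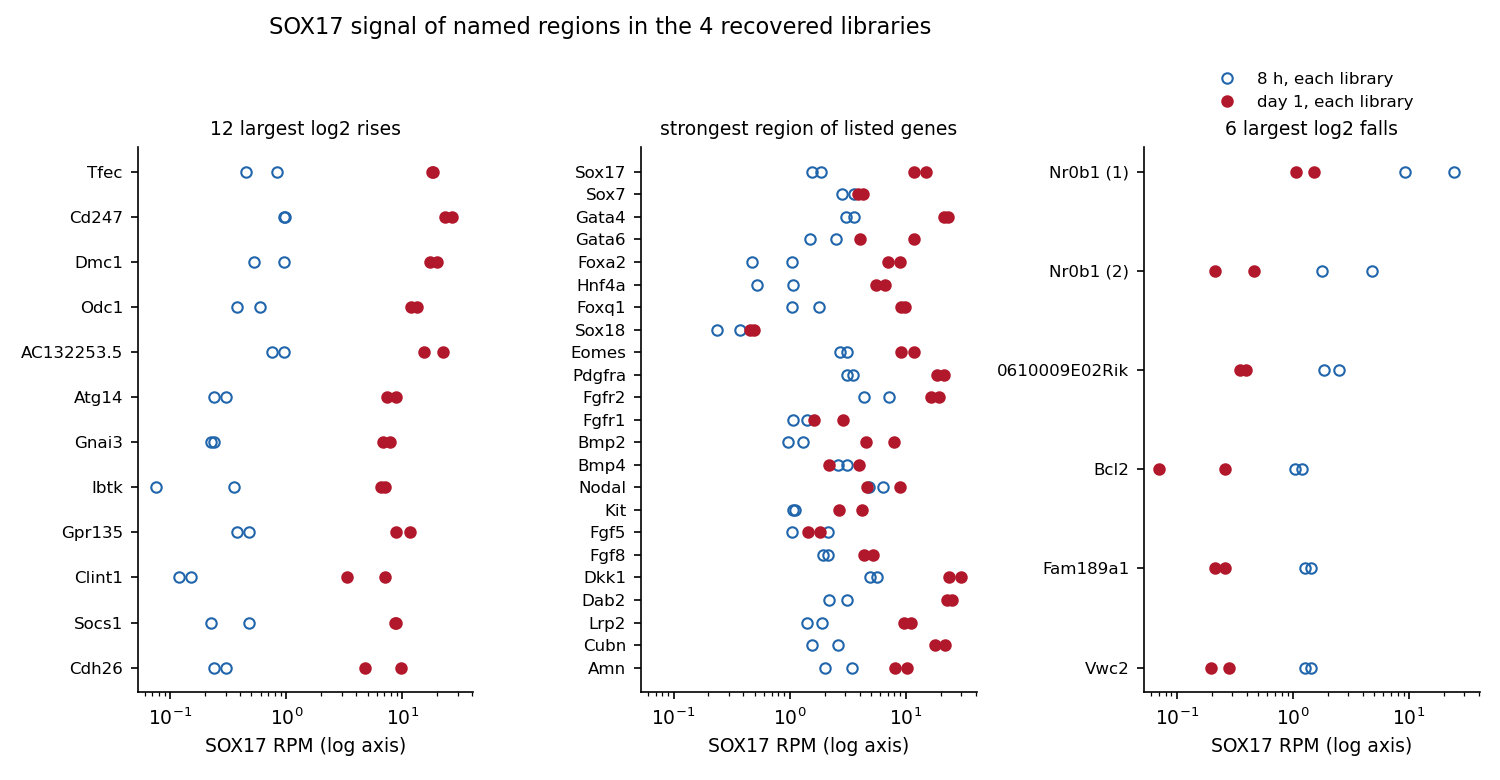
SOX17 RPM (x axis, log scale) of named regions in the 2 libraries at 8 h (open blue circles) and the 2 at day 1 (filled red circles): the 12 largest log2 rises, the linked region of highest day 1 signal for listed PrE genes, and the 6 largest falls. The libraries of the 2 times do not overlap in the first and last panels, whose regions were chosen by the change in these same libraries. In the middle panel they overlap for Bmp4, Nodal and Fgf5. Over all regions both day 1 libraries lay above both 8 h libraries in 52.1% and below them in 7.85%.

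Regions near PrE genes were read from lists of genes, a region being linked when it overlapped a gene or lay within 50 kb of either end. The list of 10 PrE transcription factor genes had 89 linked regions with a median change of 1.02, compared with 0.51 over all regions, and 43 (48.3%) were called higher and none lower, against 26.2% and 0.531% of all regions tested. At least 1 region was called for 9 of the 10 genes, among them Gata6, whose strongest region overlaps an exon that the transgene also contains. The 4 endocytic receptor genes had 25 of 52 regions called higher with a median of 0.93. The 11 basement membrane genes had 57 of 155 with a median of 0.88, with at least 1 called region for each gene. Most regions of the 10 receptor and signal genes were linked to Fgfr2, whose annotation is very long, so their list mainly describes the surroundings of 1 gene. This list stood nearer to the background, with 43 of 145 called higher, 1 lower and a median of 0.55. So did the 12 genes of visceral and parietal endoderm products, 11 of which had linked regions, with 12 of 62 called higher and a median of 0.54. The 15 pluripotency genes had 36 of 118 called higher, 1 lower and a median of 0.52. The input without antibody was also higher at day 1 at some of these lists, by a median log2 of 0.49 at the transcription factor genes, 0.29 at the endoderm products and 0.28 at the basement membrane genes, beside 0.06 over all regions and 0.07 at the endocytic genes, and its part in the SOX17 values was not tested. Lists of linked regions share neighbouring genes and are given as counts with no test.

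For each listed gene the linked region of highest day 1 signal was followed through the libraries, a choice that favours gains. Of the 24 regions of transcription factor, receptor, signal and endocytic genes, 18 were called higher by limma and none lower. The 18 include the Gata6 region, where the gene and the transgene cannot be told apart, as described below. At Sox17 itself a region 40.3 kb upstream of the start (chr1:4536608-4538990) had 1.87 and 1.55 RPM at 8 h and 11.9 and 14.9 RPM at day 1 (limma log2 change 2.84 ± 0.36, adjusted p = 1.04e-12). It was 3.95 RPM at 16 h and went on to 18.6 RPM by day 2 and 36.7 RPM by day 4. A region in an intron of Gata4, which encodes a PrE factor related to GATA6 (chr14:63264284-63266085), went from 3.07 and 3.57 RPM to 23.3 and 21.3 RPM. A region 19.0 kb upstream of Foxa2, a forkhead factor of endoderm (chr2:148065560-148066481), went from 1.05 and 0.476 RPM to 7.08 and 8.91 RPM. Both were closed before induction and both passed the test in limma (adjusted p = 2.28e-12 and 4.66e-14).

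Hnf4a, Foxq1 and Eomes likewise had a called region. For Hnf4a, a nuclear receptor of visceral endoderm, it was 13.6 kb upstream of the start and held 0.523 and 1.07 RPM at 8 h and 5.51 and 6.58 RPM at day 1. For Sox7 and Sox18, which encode the other SOX factors of this subgroup, the region of highest day 1 signal did not pass, although 3 of the 6 regions linked to Sox7 were called higher (0 of 2 for Sox18). The Sox7 region (chr14:63940199-63941580), whose motif is printed above, was at 2.84 and 3.57 RPM and then 4.26 and 3.89 RPM (limma log2 change 0.34 ± 0.37, adjusted p = 0.563). It was a transient region of moderate accessibility, and its GATA6 was 4.53 RPM at 8 h and 3.26 RPM at day 1. The Gata6 region overlapped a coding exon that the inducible transgene also contains, so the gene and the transgene cannot be told apart there. Its SOX17 values were 1.495 and 2.50 RPM and then 4.06 and 11.8 RPM, and its input was 0.914 RPM at 8 h and 7.55 RPM at day 1.

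Of the receptor genes, Pdgfra, the PrE receptor for PDGF, had a region 14.3 kb upstream of its start that went from 3.51 and 3.10 RPM to 21.4 and 18.6 RPM (adjusted p = 5.18e-11 in limma). Dkk1, which encodes a secreted WNT inhibitor, had one of the larger gains of the list at 34.9 kb from the gene's start (4.93 and 5.72 RPM, then 30.1 and 23.8 RPM). Bmp2, Kit, Fgf8 and Fgfr2 also had called regions, the Fgfr2 annotation being so long that 94 regions were linked to it and the strongest lay within Htra1. Those of Bmp4, Nodal, Fgf5 and Fgfr1 did not pass. Among all linked regions 2 of 4 were called higher for Nodal, and none for Bmp4, Fgf5 and Fgfr1. Nodal had 4.86 and 6.43 RPM at 8 h and 8.91 and 4.67 RPM at day 1, and Bmp4 2.62 and 3.10 RPM and then 3.998 and 2.19 RPM, so the day 1 libraries disagreed for both.

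All 4 endocytic genes, whose products form and serve the uptake machinery of the visceral endoderm, had called regions. That of Dab2, an endocytic adaptor, lay in an intron of the neighbouring gene C9, 173.7 kb from the Dab2 start. It went from 2.17 and 3.10 RPM to 24.8 and 22.5 RPM (limma log2 change 3.10 ± 0.35, adjusted p = 4.93e-16). The region of Cubn, the cubilin receptor gene, lay 4.47 kb upstream of its start and went from 2.62 and 1.55 RPM to 17.8 and 21.7 RPM. Lrp2, which encodes megalin, went from 1.42 and 1.91 RPM to 11.1 and 9.76 RPM in an intron. Amn, the partner of cubilin, had 2.02 and 3.45 RPM and then 10.2 and 8.13 RPM in a region without a SOX17 motif match.

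The 6 of these 24 regions that did not pass included 5 transient regions, a class that holds 38.4% of all regions and 45.4% of those not called. GATA6 was no higher at day 1 than at 8 h in any of the 6. Over all regions not called, its median likewise went from 1.37 to 0.996 RPM. Of the 18 that passed, 15 were early, a class that holds 28.0% of all regions and 59.9% of the 11120 higher ones. Closed before induction were 12, beside 61.3% of all regions and 67.4% of the higher ones. OCT4 was higher at day 1 than at 8 h in all 18, in 63.0% of all regions and in 89.2% of the higher ones. Of the same 18, 15 were in the highest GATA6 group at 8 h, as were 5 of the 6 that did not pass.

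The higher regions split in their later course by GATA6 class. Of 6659 early ones, 80.4% were past 2-fold over 8 h at day 4 and 57.5% in XEN cells. Of 2483 late ones, 59.6% gained a further 2-fold between day 1 and day 4, and the median went from 1.49 to 3.87 RPM. Of 1978 transient ones, 51.4% fell past 2-fold by day 4, with the median going from 2.07 to 0.839 RPM and to 0.453 RPM in XEN cells. From day 1 to day 4, 28.6% of the 11120 higher regions rose past 2-fold and 16.1% fell. Among all regions 26.2% rose and 11.8% fell. The GATA6 classes were built from the later times too, and the day 1 values chose the regions, so this split is a description. Most higher regions lay away from gene starts, with 51.1% in introns and 43.4% between genes, beside 53.8% and 40.01% of all regions. The best motif of a higher region stood a median of 109 bases from the GATA6 summit, beside 106 for all regions, and 170 bases from the best GATA6 motif, beside 144.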

How the data were processed

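Per the labels and the study's methods, ChIP libraries with molecular identifiers were trimmed (cutadapt) and aligned to mm10 with Bowtie2. Duplicates were removed (SAMtools), GATA6 peaks were called with MACS2 on merged replicates, and the authors counted reads over each region, corrected to library size, and deposited RPM with 1 pooled value per condition. The deposited score of a motif is that of the best FIMO match, and the other deposited columns (coordinates, match numbers and classes) are the authors' too. Of 105 columns, 14 that could not be tied to samples (ATAC-seq, histone marks) were not used. The members, lists and sequence searches were chosen with earlier results of these data known.

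Library values were recovered as whole reads from the steps of the pooled RPM. The lowest value was 1 read in each library, and whether the authors added a read is not stated. The recovery was checked, and limma tested, on simulated data. Levels were taken as log2(RPM + 0.182), the pseudocount being the 5th percentile of the deposited SOX17 values at all times and in XEN cells. The limma fit (version 3.58.1 in R 4.3.3, trend, no block or covariate) ran over all regions with Benjamini-Hochberg adjustment, and tables were made with Python 3.11.15, pandas 2.3.3 and matplotlib 3.10.9. Genes came from GENCODE vM21 and sequences from RefSeq's GRCm38, with 1-based coordinates. The regions named are the 12 largest log2 and RPM gains, the 6 largest falls and, per listed gene, the linked region of highest day 1 signal. Intervals for single regions were not given, as the number of libraries limits the precision. Marker expression of the cells was not analysed here. Alternatives were other pseudocounts, a filter on low values, ratios to input, differences in RPM, other start points, scaling to regions without motif and SOX17 peak, each library left out, 1 read less per library, and comparisons within strata. One listed gene is counted with its list and is not reported here by name.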

Additional observations from a re-analysis of the deposited data

How the results depend on the processing

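No paired analysis was possible because the recovered libraries could not be matched to the replicate numbers of the labels. The median change over all regions (0.51) was 0.17 and 0.65 with a pseudocount 10 times larger and smaller, 0.89 over regions at or above the median SOX17 RPM, 0.35 relative to regions without motif in the class without SOX17 peaks, 0.64 with 1 read less per library, and 0.47 to 0.65 with 1 library left out. The count past 2-fold upward (12142) fell to 3130 with the larger pseudocount and was 11805 to 14602 with a library left out.

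The count past 2-fold downward (365) was 3 and 1157 with the larger and smaller pseudocount, 189 above the median RPM, 1181 as ratio to input, 665 from the deposited column before induction and 1812 from its remainder, 761 relative to regions without motif, 767 per kb, and 234 to 1116 with a library left out. The regions lower by limma (225) were 499 relative to regions without motif, and 45 to 273 with a library left out (45 without the second 8 h and 53 without the second day 1 library), and the higher ones (11120) 6541 to 10140.

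The highest minus lowest GATA6 quintile (0.32) reversed to -0.997 above the median RPM, where 9.17% of the lowest and 95.9% of the highest quintile remain, to -0.0200 from the remainder of the column before induction, and to -0.26 within groups of equal width. With a library left out it was 0.03 to 0.59. The closed minus accessible difference (0.23) reversed to -0.0861 in RPM, and was 0.00492 and 0.38 with the larger and smaller pseudocount, 0.87 above the median RPM, 0.74 as ratio to input, 0.51 from the remainder, and 0.14 to 0.35 with a library left out.

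The high minus none motif difference (0.48) kept its sign throughout and was 0.21 and 0.54 with the larger and smaller pseudocount, 0.57 above the median RPM, 0.55 as ratio to input, 0.40 from the deposited column before induction and 0.35 from its remainder, 0.35 within accessibility and GATA6 strata, 0.36 within width groups, 0.38 for the highest minus lowest score quintile, and 0.44 to 0.51 with a library left out. The settings of 1 read less, the remainder, width for GATA6 and GATA6 class for accessibility were chosen after seeing the data. Depth at 8 h limits single regions.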

Other observations

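Some SOX17 motifs with the end CTATTGTT ranked high by median change and low by score among the 100 sequences. CCTATTGTT was 2nd by change (0.99, 185 regions) and 72nd by score, TCTATTGTT 3rd (0.98, 475 regions) and 81st, and GCTATTGTT 5th (0.91, 265 regions) and 83rd, while ACTATTGTT was 34th and 89th. Only 8.11% of the CCTATTGTT copies lay in repeat-masked sequence of the reference, and 37.4% of those of GCTATTGTT. Of the TCTATTGTT copies 58.3% lay in such sequence, and these 277 had a median change of 1.10 (52.3% called higher by limma, against 26.2% of all regions tested), beside 0.74 for the 198 others. Among the masked copies 67.1% were in the transient GATA6 class. For other motif sequences the masked and unmasked copies had medians of 0.61 and 0.63.

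Some motifs came with the same surroundings in many regions, which shows as repeated 29-base windows. These observations were made after the values were seen, and regions of 1 repeat family share sequence and are not independent.
First window: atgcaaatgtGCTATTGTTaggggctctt
Second window: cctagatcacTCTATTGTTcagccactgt
Last window: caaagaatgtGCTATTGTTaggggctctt
The first was found in 27 regions, with a median change of 1.44 and 22 called higher, and SOX17 went from a median of 0.678 RPM to 2.41 RPM, 2.44 RPM at day 2 and 2.90 RPM at day 4. OCT4 over these regions had a median of 1.12 RPM at 8 h and 2.54 RPM at day 1. The second was found in 16 regions, with a median of 1.26 and 12 called higher, from 0.473 to 1.67 RPM, then 1.76 RPM at day 2 and 0.608 RPM at day 4. The last, which shares the right side of the first, was found in 14 regions with a median of 1.08, 6 called higher and 1 lower.

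The libraries of a time disagreed in some coding exon regions, as they did in the Nodal and Bmp4 regions above. Whether this was more frequent in coding exons than elsewhere was not tested. The Nr0b1 exon region had 9.20 and 24.6 RPM in the 8 h libraries. A coding exon region of Nr5a2 had 6.36 and 1.49 RPM in the day 1 libraries, and the Gata6 exon region 4.06 and 11.8 RPM. The source of these differences was not tested.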
